A study of Mus musculus with 6 samples.

Results

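DnaJ co-chaperones and heat shock proteins were examined in mouse embryonic stem (ES) cells with and without an intact Morc3 gene. Members were all genes named Dnaja, Dnajb or Dnajc with a number (Dnajc1 left out) and all numbered Hspa, Hspb, Hspd, Hspe and Hsph genes whose sense-strand counts added up to at least 30 over the 6 libraries. This gave 59 genes of 24054 in the files, 40 of them DnaJ genes and 19 Hsp genes. Just inside the limit lay Hspa1a with 37 counts in all and Dnajb13 with 52. Just outside it lay Hspa12b and Hspb9 with 22 counts each and Hspa1l with 14, followed by Hspb7 with 4, while Dnajb7, Dnajb8 and Hspb3 had 0.

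The study examined Morc3 as a silencing factor for endogenous retroviruses. RNA-seq of ribosome-depleted total RNA was made from 3 Morc3 knock-out (ko) ES cell lines, KO27-1, KO27-2 and KO27-3, each a single clone made with Cas9, and from 3 cultures of the wild-type line WT26, labelled p42, p43 and p56, from which the clones were derived. All cells grew without feeder cells in medium with serum and LIF, on gelatin. The ko lines are called clone 1, clone 2 and clone 3, and the labels do not say what the letter p stands for.

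Hsp70 proteins (the Hspa genes) bind unfolded stretches of other proteins and release them in a cycle driven by ATP. DnaJ proteins, also called J-domain or Hsp40 proteins, deliver clients to Hsp70 and start its ATP hydrolysis, and nucleotide exchange factors such as the Hsp110 proteins open the cycle again. Each compartment has its own set. Small heat shock proteins (such as Hspb1) hold unfolding proteins without ATP, and Hspd1 with its lid Hspe1 forms the folding chamber of mitochondria. Many J proteins of the C class use the J-domain for 1 particular machine, such as the ribosome, the spliceosome or the mitochondrial import motor.

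Sense-strand counts amounted to 10740618 to 14123131 per library, and 15300 to 15817 genes had a count. Levels are given as CPM, counts relative to library sizes that were scaled between samples (TMM), and fold changes as log2 of ko over wild type. Genes were called at an adjusted p under 0.01 in edgeR's quasi-likelihood test over 12222 genes, which was the threshold of the study. Morc3 reached 77.8, 138 and 135 CPM in ko clones 1, 2 and 3 against 277, 272 and 302 CPM in p42, p43 and p56, so that its transcript was reduced and not absent. The 10 ES cell markers examined (such as Pou5f1, Nanog and Esrrb) were all expressed and summed to 6578 to 6741 CPM in ko and 6058 to 6215 CPM in wild type, with 0 called (Dppa5a had an adjusted p = 0.0231 by edgeR). Markers of primitive endoderm, mesoderm and neural cells summed to at most 3.55 CPM per library in each list. Those of trophoblast summed to 10.8 to 12.2 CPM in ko and 11.6 to 17.1 CPM in wild type. Almost all of this was Krt8 (913 counts in all, highest in p56 at 16.9 CPM), where Cdx2 had 12 counts and Elf5 3. Those of fibroblasts summed to 5.21 to 5.64 CPM in ko and 8.55 to 9.59 CPM in wild type. Most of this was Thy1 (516 counts), which was called lower, where Col1a1 had 29 counts and Col1a2 12. Each sum thus rests mainly on a single gene and does not tell whether such cells were present. Postn, which marks fibroblasts, was at 0 in all libraries. The part of these differences in the results below was not tested. In bulk RNA, fewer cells of a type and less RNA per cell cannot be told apart.

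Of the members, 57 passed the filter on low counts, and 2 of these were higher in ko, Dnajc21 and Hspb1. None of the members was called lower (0 of 57), also by DESeq2. An unadjusted p under 0.05 by edgeR was found for 9 of 57 members (15.8%) and for 14.3% of all tested genes. Over all tested genes, 1.28% were called by edgeR, 0.859% as higher and 0.417% as lower. At an adjusted p under 0.05 the same 2 members were called, against 2.71% of all tested genes. The median log2 fold change was -0.0059 over the tested members and -0.00010 over all tested genes, with 27 members above 0 and 30 below. The log2 fold change of 48 members lay within 0.25 of 0.

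**Figure D1:**
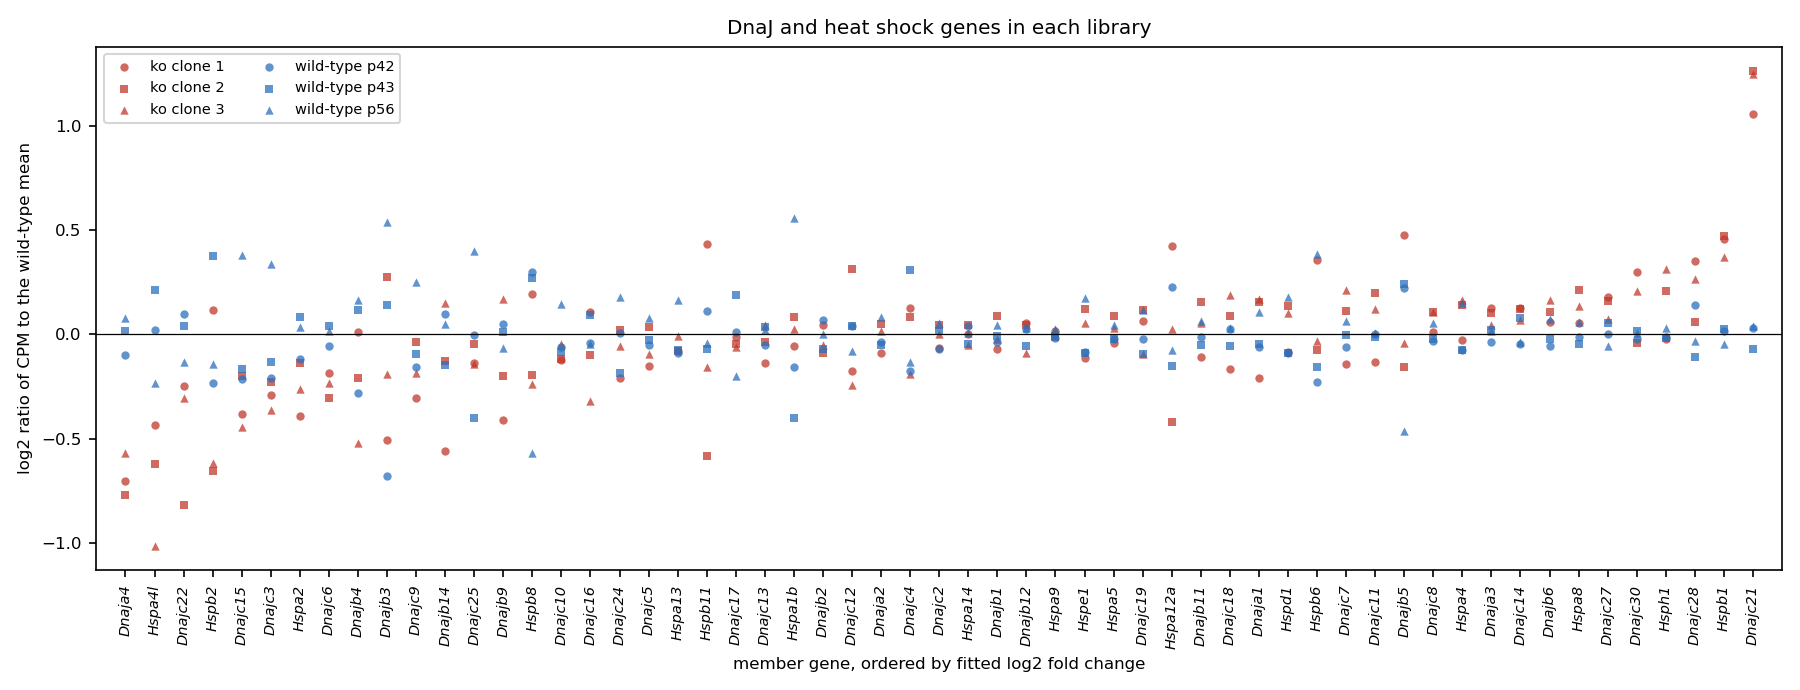
The log2 ratio of CPM to the wild-type mean (vertical axis) is plotted for the 57 tested members (horizontal axis, ordered by fitted log2 fold change), with 1 point per library, ko in red and wild type in blue. Dnajc21 at the right end has its 3 ko points between 1.06 and 1.26 and its wild-type points within 0.07 of 0, and the fitted changes of the other members run from -0.71 to 0.43.

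Dnajc21 is the J protein that acts on the cytoplasmic precursor of the large (60S) ribosomal subunit, where it helps to release and recycle assembly factors. It lies on the minus strand at chr15:10446756-10470516 (GRCm38). Because Dnajc21 stands apart from its family, the bases upstream of its annotated transcript are shown with those of Hspb1, the other called member. Both are from the RefSeq promoter table (GRCm38.p6), 5′ to 3′, with each CG dinucleotide in capitals. The stretch of Dnajc21 is chr15:10470569-10470766 on the minus strand and holds 198 bases with 19 CG and 74.2% GC. That of Hspb1 is chr5:135887669-135887918 on the plus strand and holds 250 bases with 12 CG and 59.2% GC.
Dnajc21: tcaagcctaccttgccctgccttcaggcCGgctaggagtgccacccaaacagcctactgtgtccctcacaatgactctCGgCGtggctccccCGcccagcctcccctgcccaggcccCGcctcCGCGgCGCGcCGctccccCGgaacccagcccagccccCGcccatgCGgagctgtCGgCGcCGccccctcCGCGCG
Hspb1: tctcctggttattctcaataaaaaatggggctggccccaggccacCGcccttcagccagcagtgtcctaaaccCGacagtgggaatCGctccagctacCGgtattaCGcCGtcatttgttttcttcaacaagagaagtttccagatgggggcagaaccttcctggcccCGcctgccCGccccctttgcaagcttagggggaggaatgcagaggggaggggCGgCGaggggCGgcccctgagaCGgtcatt
Windows from 250 bases before to 50 bases after the RefSeq start exist for 48 members. Over these, the GC content of Dnajc21 was 78.7%, the highest of the 48. The member median was 62.2% and the median of 27025 genes was 52.8%. For Hspb1 the GC content was 58.3%, below the member median.

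The counts of Dnajc21 were 3007, 3636 and 3501 for ko clones 1, 2 and 3 against 1885, 1820 and 1779 for p42, p43 and p56. In CPM these are 278, 321 and 318 in ko and 137, 127 and 137 in wild type. The lowest ko clone lay far above the highest wild-type culture. The mean rose from 134 ± 5.51 CPM to 306 ± 24.0 CPM (SD, n = 3), which is 2.28-fold or 1.19 on the log2 scale (SE 0.07, adjusted p = 1.9e-06 by edgeR). By p-value Dnajc21 had rank 10 of all 12222 tested genes, and by log2 fold change 67. Its log2 fold change stayed between 1.16 and 1.26 under every alternative run, and it was called in each of them.

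Compared with the rest, Dnajc21 was 1.20 higher on the log2 scale than the median of the 56 other tested members, which was -0.0068. The quartiles of these 56 lay at -0.12 and 0.06, and their whole range ran from -0.71 (Dnaja4) to 0.43 (Hspb1). Library by library, the log2 ratio of Dnajc21 exceeded the median of the others by 1.12, 1.22 and 1.26 in the ko clones and by 0.06, -0.05 and -0.0002 in the wild-type cultures. Within the Dnajc genes, Dnajc21 took 7.03%, 6.44% and 6.52% of the summed CPM in p42, p43 and p56 and 13.7%, 14.3% and 14.3% in clones 1, 2 and 3. By CPM it was sixth or seventh (ranks 6, 7 and 7) of the 25 Dnajc genes in wild type and rank 2 in every ko clone, behind Dnajc8. Dnajc21 was named for this comparison with earlier results known, so that these values describe it and are not independent evidence.

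A ratio of counts within a library does not depend on how libraries are scaled. Dnajc2, which sits with Hspa14 on translating ribosomes and receives nascent chains, served as the reference because it is the other J protein of the ribosome. The ratio of Dnajc21 to Dnajc2 counts was 1.11, 1.19 and 1.21 in the ko clones and 0.547, 0.483 and 0.506 in the wild-type cultures. There were thus fewer reads of Dnajc21 than of Dnajc2 in every wild-type culture and more in every ko clone. The level of Dnajc2 itself was 261 ± 10.3 CPM in ko and 262 ± 11.2 CPM in wild type (SD, n = 3), a log2 fold change of -0.01 (SE 0.06).

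**Figure D2:**
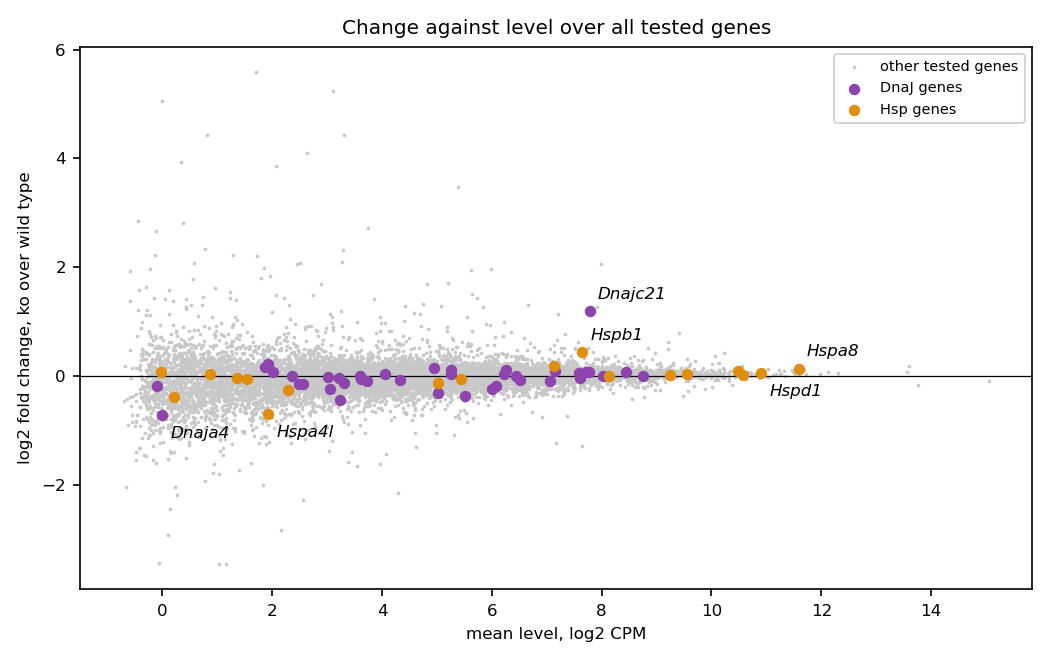
Each point is a tested gene, with the mean level in log2 CPM on the horizontal axis and the log2 fold change of ko over wild type on the vertical axis, DnaJ genes in purple, Hsp genes in orange and all other tested genes in grey. Dnajc21 at 1.19 lies above all other members, while highly expressed members such as Hspa8 (0.14) and Hspd1 (0.05) lie near 0.

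The genes next to Dnajc21 did not pass the test. Of 8 annotated genes within 250 kb, 3 were tested, and the others had at most 50 counts in all libraries together. Brix1, itself a factor of 60S ribosome assembly, lies 4263 bp away on the same strand. It had 142, 146 and 178 CPM in ko and 144, 146 and 133 CPM in wild type, with a log2 fold change of 0.14 (SE 0.09, adjusted p = 0.523 by edgeR). Rad1, a subunit of a DNA damage checkpoint clamp, had 0.07 (SE 0.07, adjusted p = 0.750 by edgeR) and Rai14 had -0.07 (SE 0.07, adjusted p = 0.702 by edgeR). The groups overlapped in all 3 neighbours. The ratio of Dnajc21 to Brix1 counts was 1.98 ± 0.206 in ko and 0.951 ± 0.0814 in wild type (SD, n = 3), with ko values of 1.95, 2.19 and 1.78 and wild-type values of 0.948, 0.872 and 1.03.

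**Figure D3:**
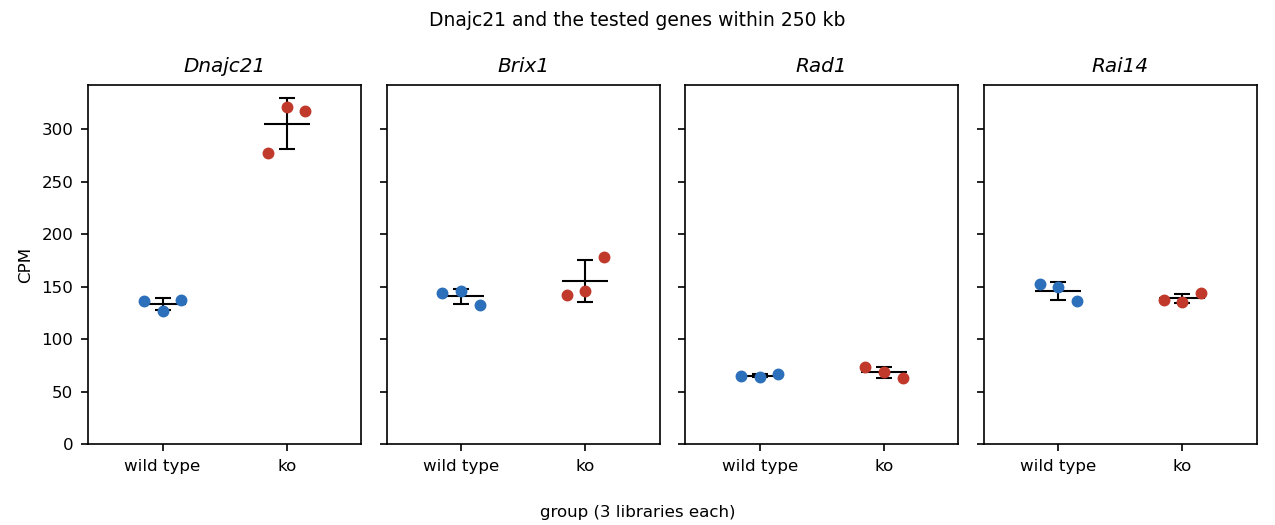
The CPM of Dnajc21 and of the 3 tested genes within 250 kb is plotted for wild type (blue) and ko (red), with 1 point per library and black bars for the mean and SD of 3 libraries. The ko libraries of Dnajc21 lie between 278 and 321 CPM, above its wild-type libraries, while the groups overlap for Brix1, Rad1 and Rai14.

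No other listed factor of the maturation of the 60S subunit, at whichever step it acts, was called. In a list of 15 such genes, Dnajc21 was the only one called. The other 14 had log2 fold changes between -0.05 (Nle1) and 0.14 (Brix1), and the smallest edgeR adjusted p among them was 0.483 (Rsl24d1). Pa2g4, related to a yeast assembly factor that is removed at the step of Dnajc21, had 0.12 (SE 0.08). Zfp622, related to another yeast factor of the same step, had -0.02 (SE 0.08). Reads on the strand opposite to Dnajc21 came to 7, 11 and 8 in ko and 4, 4 and 1 in wild type, too few to be tested.

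Hspb1, the small heat shock protein also called Hsp25 or Hsp27, was the other called member (chr5:135887919-135889563, plus strand). Its level was 233, 236 and 220.1 CPM in the ko clones against 172, 173 and 165 CPM in the wild-type cultures. All ko values were above all wild-type values. The mean was 229.6 ± 8.33 CPM in ko and 170.0 ± 4.71 CPM in wild type (SD, n = 3), or 0.43 higher on the log2 scale (SE 0.06, adjusted p = 0.00172 by edgeR). The call was lost without ko clone 2, with an adjusted p of 0.020, and without wild-type p42, with 0.0107, while the log2 fold change stayed between 0.41 and 0.47 in all alternatives.

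None of the 4 other Hspb genes was called. Hspb8, which works with the co-chaperone Bag3 in the removal of aggregated proteins, had 37.2, 28.4 and 27.6 CPM in ko and 40.05, 39.3 and 21.9 CPM in wild type. Here p56 lay below every other library. The log2 fold change was -0.12 (SE 0.20, adjusted p = 0.846 by edgeR) and without p56 it was -0.35 (SE 0.10, adjusted p = 0.0487 by edgeR). Hspb2, Hspb6 and Hspb11 were all under 5 CPM in every library, with log2 fold changes of -0.40 (SE 0.35), 0.06 (SE 0.34) and -0.05 (SE 0.26).

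Bag3, which is no member but a partner of Hspb8 and Hsp70, was not called. It had 12.9, 11.03 and 12.7 CPM in ko and 8.04, 8.19 and 6.10 CPM in wild type, so that the groups did not overlap. The difference was 0.71 on the log2 scale (SE 0.15, adjusted p = 0.0226 by edgeR). It was called without p56 and with no filter on low counts.

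Hsp70 genes were the most abundant members together with the mitochondrial chaperonin. Per kilobase of exon, the highest mean levels were those of Hspd1 with 726 CPM per kb, Hspa8 with 715, Hspe1 with 409, Hspa9 with 356 and Hspa4 with 258. This ranking depends on the exon length, for which all annotated exons were merged. By CPM alone, Hspa8 was above Hspd1 in every library. The order of Hspd1 and Hspa8 was not the same in the groups. In ko they had 738 and 749 CPM per kb, and in wild type 714 and 681. The lowest levels per kb were those of Hspa1a with 0.169 and Hspa12a with 0.199. All members together summed to 12759 to 14056 CPM in ko and 12403 to 13588 CPM in wild type, and the groups overlapped.

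**Figure D4:**
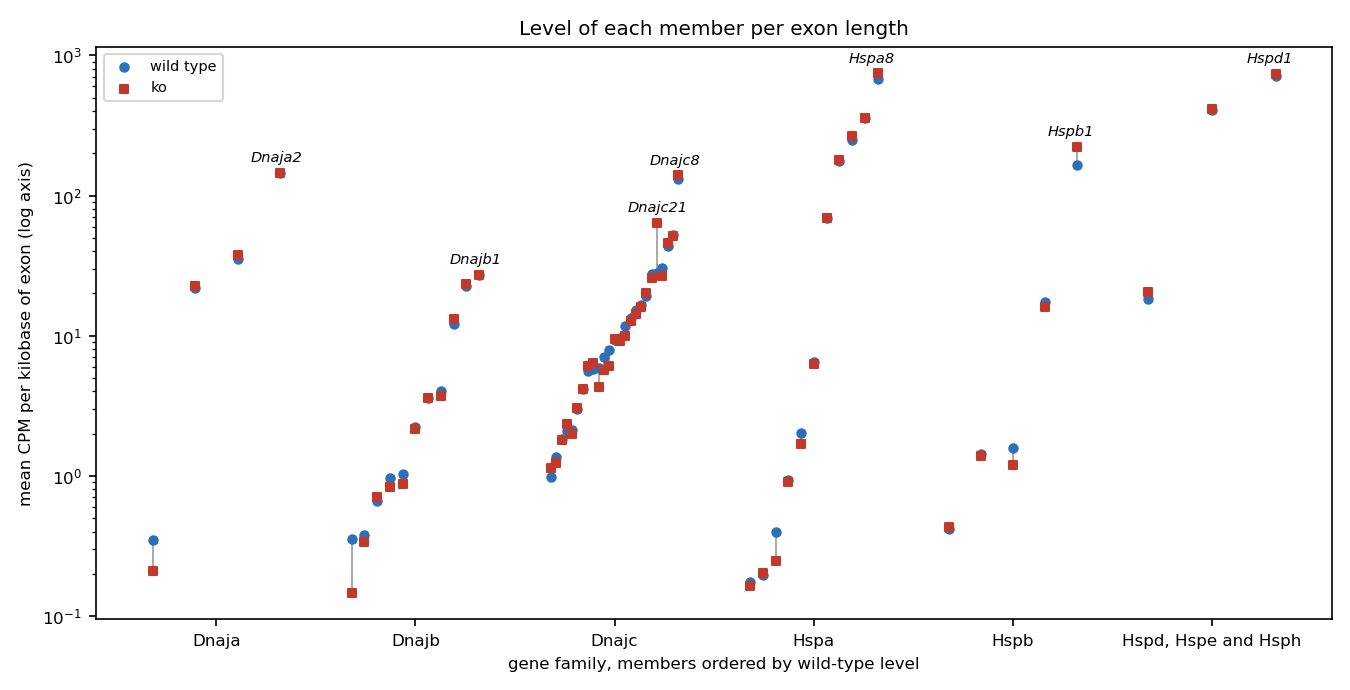
The mean CPM per kilobase of exon (vertical log axis) is plotted for all 59 members by family, ordered by wild-type level, with wild type as blue circles, ko as red squares and a grey line joining them. Most pairs of symbols coincide, Dnajc21 and Hspb1 have the ko symbol above the wild-type symbol, and the wider gaps at the bottom belong to genes with few counts.

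Hspa8, the constitutive Hsp70 of the cytosol, had 3041, 3395 and 3222 CPM in ko and 2906, 2833 and 3048 CPM in wild type. The highest wild-type value just exceeded the lowest ko value. Its log2 fold change was 0.14 (SE 0.06, adjusted p = 0.311 by edgeR). Hspa5 (BiP), the Hsp70 of the endoplasmic reticulum, had 0.03 (SE 0.06), and Hspa9 (mortalin), the Hsp70 of mitochondria, had 0.01 (SE 0.05). Hspa14, the Hsp70 on ribosomes that works with Dnajc2, had 280 ± 9.07 CPM in ko and 280 ± 8.43 CPM in wild type (SD, n = 3). The stress-inducible copies Hspa1a and Hspa1b were at the edge of detection, with 37 and 190 counts over all libraries. Hspa1b reached 2.40, 2.65 and 2.54 CPM in ko and 2.25, 1.89 and 3.71 CPM in wild type, and Hspa1a was not tested. These copies are nearly identical, so that reads mapping to both are not counted and their values are uncertain.

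The Hsp110-type exchange factors differed in level, and none of them was called. Hspa4 had 1354, 1521 and 1543 CPM in ko and 1308, 1310 and 1530 CPM in wild type, and Hsph1 had 130.4, 153 and 165 CPM against 131.1, 130.6 and 135 CPM. Their log2 fold changes were 0.09 (SE 0.08) and 0.17 (SE 0.08), with overlapping groups. Hspa4l, another gene of this type, had 3.42, 3.00 and 2.27 CPM in ko and 4.71, 5.39 and 3.94 CPM in wild type, so that all ko values were below all wild-type values. Its log2 fold change of -0.69 (SE 0.21) did not pass the test, with adjusted p = 0.138 by edgeR, and with 289 counts over all libraries the precision was low. Hspa2, an Hsp70 best known from the testis, also had all ko values below wild type, at 4.46 ± 0.395 against 5.36 ± 0.388 CPM (SD, n = 3, adjusted p = 0.529 by edgeR).

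Separation of the groups was also counted, whatever its size. All ko libraries lay above all wild-type libraries for 4 of 57 members (Dnaja3, Dnajc21, Dnajc27 and Hspb1), where 9.67% of all tested genes did so. They lay below for 6 members (Dnaja4, Dnajc3, Dnajc6, Dnajc22, Hspa2 and Hspa4l), where the share of all tested genes was 10.2%. These are 7.02% and 10.5% of the tested members.

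The type A and type B DnaJ proteins, the general partners of Hsp70, were not called in any case (0 of 4 and 0 of 10 tested). Over all tested genes 1.28% were called, so that 0 in families of this size is near that share. The same holds for the other Hspb genes and the Hsp110 genes above. Dnaja1 and Dnaja2, the main cytosolic type A proteins, differed by 0.05 (SE 0.10) and -0.01 (SE 0.06) on the log2 scale. Dnaja3, which works in mitochondria, had 150.4, 147.9 and 142 CPM in ko and 134, 139.7 and 139 CPM in wild type, with a log2 fold change of 0.09 (SE 0.06, adjusted p = 0.549 by edgeR). Dnaja4 had the lowest log2 fold change of all members, -0.71 (SE 0.32, adjusted p = 0.330 by edgeR), from 0.754 ± 0.0568 CPM in ko and 1.24 ± 0.0782 CPM in wild type (SD, n = 3) and only 76 counts in total.

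Dnajb1, the classical Hsp40 that is induced by heat shock, had 83.1, 92.7 and 86.0 CPM in ko and 85.1, 86.7 and 90.03 CPM in wild type. Its log2 fold change of 0.0003 (SE 0.07) was the smallest of all members in size. Dnajb6, which holds back protein aggregation, had 0.11 (SE 0.07). Dnajb9 and Dnajb11, both J proteins of the endoplasmic reticulum, had -0.13 (SE 0.15) and 0.04 (SE 0.08). Dnajb4 had -0.24 (SE 0.17) and Dnajb3 -0.19 (SE 0.40), the largest in size of type B. Dnajb13, a gene of sperm flagella, was under 2 CPM in every library and was not tested.

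Apart from Dnajc21, 0 of 24 tested type C genes were called, which is near the share of 1.28% over all tested genes. Their log2 fold changes ran from -0.44 (Dnajc22) to 0.22 (Dnajc28). Dnajc8, a J protein of the spliceosome and the most abundant of the class, had 0.08 (SE 0.06). Dnajc6 (auxilin), which uncoats clathrin vesicles with Hspa8, had 61.3, 56.4 and 59.2 CPM in ko and 67.0, 71.6 and 70.6 CPM in wild type. The groups did not overlap, and its log2 fold change of -0.24 (SE 0.07) had adjusted p = 0.103 by edgeR. Dnajc22 lies on chromosome 15 like Dnajc21. It had 9.06, 6.09 and 8.71 CPM in ko and 11.5, 11.1 and 9.81 CPM in wild type, with adjusted p = 0.209 by edgeR.

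The remaining type C genes are given by where their proteins work. Of those of mitochondria, Dnajc11, found with the cristae-shaping complex, had a log2 fold change of 0.07 (SE 0.08), Dnajc19 of the import motor 0.03 (SE 0.09) and Dnajc30 0.16 (SE 0.18). Dnajc10, a disulfide reductase of the endoplasmic reticulum, had -0.10 (SE 0.07) from 126, 126 and 133 CPM in ko and 131, 129.5 and 152 CPM in wild type, where p56 was again the highest. Dnajc5, the cysteine string protein of vesicles, had -0.07 (SE 0.07) and Dnajc13 of endosomes -0.04 (SE 0.07). Dnajc7, a cytosolic co-chaperone of Hsp70 and Hsp90, had 192, 229 and 246 CPM in ko and 203, 211 and 222 CPM in wild type, with 0.07 (SE 0.08). In Dnajc7 and Dnajc11, ko clone 1 was the lowest library and the other clones were the highest.

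Dnajc24, needed for the diphthamide modification of a translation factor, had -0.08 (SE 0.12), and Dnajc17, a splicing factor, -0.05 (SE 0.13). Dnajc27, which carries a Rab-like domain, had 33.4, 32.9 and 31.04 CPM in ko and 29.5, 30.6 and 28.4 CPM in wild type. Its groups did not overlap, yet its log2 fold change was only 0.14 (SE 0.08, adjusted p = 0.513 by edgeR). Dnajc4, Dnajc12, Dnajc14, Dnajc16, Dnajc18, Dnajc25 and Dnajc28 ranged from -0.14 (Dnajc25) to 0.22 (Dnajc28). Of the type B and Hsp70 genes not yet given, Dnajb2, Dnajb5, Dnajb12, Dnajb14, Hspa12a and Hspa13 ranged from -0.15 (Dnajb14) to 0.07 (Dnajb5), and all had an adjusted p of at least 0.784 by edgeR.

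The 3 members on chromosome 14 shared a pattern over the wild-type cultures. Dnajc3, an inhibitor of the kinase PERK and co-chaperone of Hspa5, had 29.1, 30.4 and 27.7 CPM in ko and 30.9, 32.6 and 45.1 CPM in p42, p43 and p56. Dnajc15, a J protein of the mitochondrial import motor, had 38.4, 43.6 and 36.8 CPM in ko and 43.2, 44.7 and 65.2 CPM in wild type. Dnajc9, a J protein that handles histones H3 and H4, had 57.5, 69.4 and 62.5 CPM in ko and 63.8, 66.6 and 84.5 CPM in wild type. In all 3 genes p56 was the highest library. This was not particular to chromosome 14. Among members elsewhere, p56 was also the highest library in some, such as Hspd1, Hspe1, Hspa13 and Dnajc25. It was the lowest in others, such as Hspb8 and Dnajb5.

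In p56, Dnajc9, Dnajc15 and Dnajc3 were at 1.30, 1.49 and 1.42 times the mean of p42 and p43. Over the 423 tested genes of chromosome 14 the median of this ratio was 1.28. The log2 fold changes were -0.18, -0.36 and -0.31 with all libraries and -0.04, -0.15 and -0.12 without p56. None of the 3 genes was called either way, and the edgeR adjusted p was 0.511, 0.263 and 0.301 with all libraries.

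**Figure D5:**
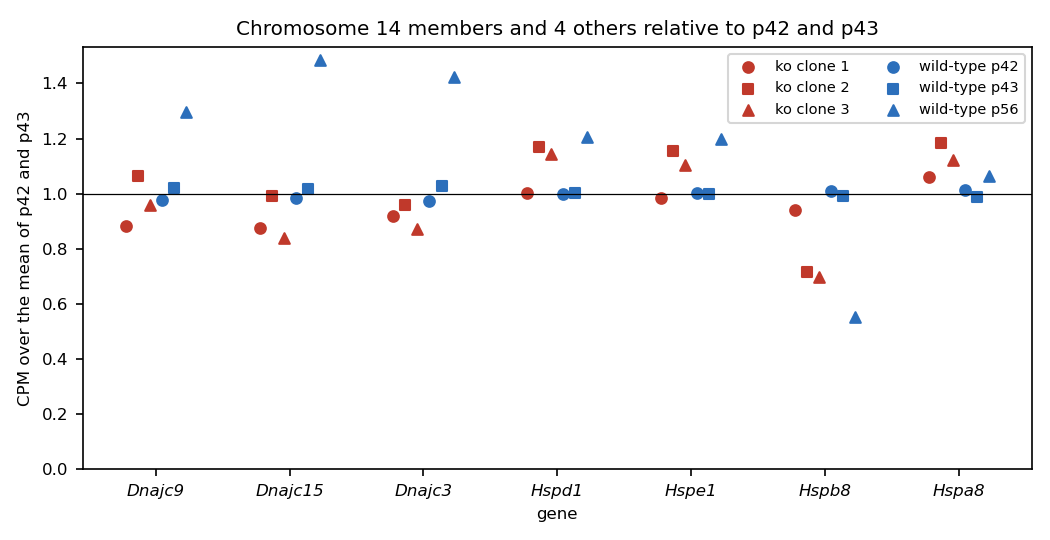
CPM divided by the mean of wild-type p42 and p43 is plotted for the chromosome 14 members Dnajc9, Dnajc15 and Dnajc3 and for Hspd1, Hspe1, Hspb8 and Hspa8, with 1 point per library, ko in red and wild type in blue. Wild-type p56 (blue triangle) is at 1.30, 1.49 and 1.42 in the chromosome 14 members, at 1.21 and 1.20 in Hspd1 and Hspe1 and at 0.553 in Hspb8.

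Hspd1 and Hspe1 encode the chamber and the lid of the mitochondrial chaperonin and are transcribed away from each other from 1 shared promoter on chromosome 1. Hspd1 had 1769, 2066 and 2017 CPM in ko and 1763, 1767 and 2129 CPM in wild type. Hspe1 had 552, 649 and 621 CPM in ko and 562, 561 and 674 CPM in wild type. Both were lowest in ko clone 1, p42 and p43 and highest in p56, so that the groups overlapped fully. Their log2 fold changes were 0.05 (SE 0.08) and 0.02 (SE 0.08), and 0.15 (SE 0.07) and 0.11 (SE 0.07) without p56. The ratio of Hspd1 to Hspe1 counts was 3.20, 3.18 and 3.25 in ko and 3.14, 3.15 and 3.16 in wild type, a narrow range against that of either gene.

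Stress-responsive members carry known control elements, and the sequences show which of them hold a full match. The heat shock element, bound by heat shock factors, was searched as 3 inverted units, GAA, 2 bases, TTC, 2 bases, GAA, or its reverse complement, on both strands. The endoplasmic reticulum stress element was searched as CCAAT, 9 bases, CCACG, on both strands. The matches lie in RefSeq windows of GRCm38.p6 and are printed 5′ to 3′ on the strand of the gene with the match in capitals. The positions are chr5:29735844-29735873 (plus) for Dnajb6, chr1:55088053-55088082 (plus) for Hspe1, where the complement is the element of Hspd1, chr5:149636279-149636308 (minus) for Hsph1, chr14:118937822-118937851 (plus) for Dnajc3 and chr2:34772020-34772049 (plus) for Hspa5. In Hspe1, 2 matches overlap. The match of Hsph1 lies after the RefSeq start, inside the gene, while the other printed matches lie before the start.
Dnajb6, heat shock element: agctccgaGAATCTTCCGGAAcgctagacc
Hspe1, heat shock element: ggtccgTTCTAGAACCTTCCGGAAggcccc
Hsph1, heat shock element: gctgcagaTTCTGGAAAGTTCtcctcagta
Dnajc3, endoplasmic reticulum stress element: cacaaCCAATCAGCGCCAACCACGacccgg
Hspa5, endoplasmic reticulum stress element: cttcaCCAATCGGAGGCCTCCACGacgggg
The heat shock element was found in 4 of 48 members with a window (8.33%), Dnajb6, Hspd1, Hspe1 and Hsph1, and in 0.662% of all 27025 genes. The endoplasmic reticulum stress element was found in 2 members (4.17%) and in 0.137% of all genes. The 4 genes with a heat shock element had log2 fold changes of 0.11, 0.05, 0.02 and 0.17, and the 2 with the other element -0.31 (Dnajc3) and 0.03 (Hspa5), none of them called. The windows of Dnajc21 and Hspb1 hold neither run of letters. Elements with a mismatched base or another spacing were not searched, so that an imperfect element in these windows would have been missed.

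Genes of the wider chaperone network are given by list. With 1.28% of all tested genes called, a count of 0 or 1 in lists of this length, that of 60S maturation included, is near the share over all genes and is no result about the list. In the list of the cytosolic heat shock response, 1 of 18 tested genes was called, Hspb1. Hsp90aa1 and Hsp90ab1, the cytosolic Hsp90 genes, differed by 0.06 (SE 0.05) and -0.02 (SE 0.09) on the log2 scale, and Hsf1, the main heat shock factor, had 0.10 (SE 0.10). In the endoplasmic reticulum and unfolded protein response list 0 of 21 genes were called. Its lowest value was that of Ddit3 (CHOP), a stress-induced transcription factor, at -0.61 (SE 0.22, adjusted p = 0.220 by edgeR), and its highest that of Xbp1 at 0.21 (SE 0.08, adjusted p = 0.258 by edgeR). The list of mitochondrial chaperones and the import motor had 0 of 16 called, that of Hsp70 and Hsp90 regulators 0 of 22, and that of the chaperonin TRiC with prefoldin 0 of 13. The remaining lists had 0 of 3 (heat shock factors), 0 of 6 (nascent chain and splicing J proteins with partners) and 0 of 5 (endocytic and vesicle J proteins) called.

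Over all lists, 0 of 77 tested genes that are no members were called by edgeR or DESeq2, against the 1.28% called over all tested genes, which is also near 0 or 1 for a list of this length. An unadjusted p under 0.05 was found for 4 of the 77 (5.19%) and for 14.3% of all tested genes.

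Counts on the strand opposite to the members were low. Of 10 members with enough such counts, 0 were called by edgeR or DESeq2, where 0.508% of 1378 genes tested on that strand were called by edgeR. An unadjusted p under 0.05 was found for 2 of the 10 (Hspa4 and Hspa9) and for 115 of the 1378 genes (8.35%). Only 3 members had more than 500 opposite-strand counts in all, Dnajc19, Dnajc14 and Dnaja1. Each of these shares exon bases with a gene on the other strand, namely Fxr1, Ormdl2 and Smu1. In 4 members (Dnaja3, Dnajc14, Dnajc25 and Hspa14), exons overlap those of another protein-coding gene on the same strand, where reads cannot be assigned to 1 gene, so that their levels are uncertain.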

How the data were processed

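RNA was extracted with DNase treatment from 6 ES cell cultures, depleted of ribosomal RNA and made into strand-specific libraries (paired-end, 50 bp). The authors aligned them to mm10 with STAR and deposited its counts per gene, raw and per library, with 3 columns (strand ignored and each strand). The annotation behind the counts is not given in the sources used here. STAR counts only pairs that map to 1 place and 1 gene. The fourth column, was taken as sense (the third held 1.21% to 1.27% of the stranded counts), and reads assigned to no gene were left out. The authors tested with DESeq2.

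Here counts were tested with edgeR 4.0.16 (R 4.3.3; TMM, filterByExpr with a minimum count of 10 and minimum total of 15, group as the only term, Benjamini-Hochberg adjustment over all tested genes, adjusted p under 0.01). SE is the size of the log2 change over the root of F, and the prior count was 0.125. Alternatives were DESeq2 1.42.0, its scaling, no filter, counts without strand, a threshold of 0.05 and leaving out each library. The scripts were tested on simulated data. Exon lengths (all annotated exons merged) and positions came from GENCODE M21, promoters from RefSeq.

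Members and lists were chosen with earlier results of these data known. Named were Dnajc21, called members, in each family the 2 highest per kilobase and the 2 most changed, members on chromosome 14, a set of well-known chaperones, called list genes, tested genes within 250 kb of Dnajc21 and genes at the limit of the rule. Other genes were named after their values were seen. The labels do not say how independent the cultures were, so p-values measure the spread between these samples, which may be in part technical. Each ko library is 1 clone of 1 parental line. 1 list gene is not reported here by name.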

Additional observations from a re-analysis of the deposited data

How the results depend on the processing

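No paired analysis was possible because ko clones (1 to 3) and wild-type cultures (42, 43, 56) have no number in common. Dnajc21 was called under all alternatives run, with edgeR or DESeq2 adjusted p values of at most 9.5e-05, and its distance to the median of the other members stayed between 1.17 and 1.26. Of the 2 called members, Hspb1 lost its call in 2 of the leave-one-out fits. The number of genes called, 156, became 254 with DESeq2, 286 with no filter on low counts, 331 at an adjusted p under 0.05, and 72 to 385 when 1 library was left out, with 72 without ko clone 3, 73 without clone 2, 96 without clone 1 and 385 without p56. The members called higher were 1 to 2 when 1 library was left out. Other list genes called were 1 (Bag3) with no filter, 2 (Bag3 among them) at an adjusted p under 0.05, and 0 to 2 with 1 library left out, with 2 without p56. The cause of these shifts was not tested. The median of the members lay between -0.03 and 0.03 in all alternatives, so that its sign is not fixed. Genes with few counts, such as Dnaja4, Hspb2 or Hspa1b, had standard errors of 0.27 to 0.35. Changes of that size were not detectable in them at this depth, and the larger change of Dnaja4 (-0.71) was not called either.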
